A study of Mus musculus with 8 samples.

Results

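The mitochondrial ribosomal proteins were examined in 4 Bcl11b-transfected and 4 mock-transfected (pcDNA3.1) cultures of STHdh striatal cells. Members were all probes whose gene symbol begins with Mrpl or Mrps followed by a digit. This gave 105 probes for 72 genes, out of 25697 probes for 18120 symbols on the array. Of these, 42 probes for 29 genes belong to the small subunit (Mrps) and 63 probes for 43 genes to the large subunit (Mrpl). In all, 88 member probes for 66 genes were detected on all 8 arrays, against 9360 probes of the whole array, where a probe counted as detected at a detection p-value under 0.01. A further 5 member probes were detected on some arrays only and 12 on none.

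The mitochondrial ribosome, or mitoribosome, is the separate ribosome inside the mitochondrion that translates the few messenger RNAs of the mitochondrial genome, all of which encode core subunits of the respiratory chain and ATP synthase. Its RNA comes from mitochondrial DNA, but every one of its proteins is encoded in the nucleus, made on cytosolic ribosomes and imported. The small subunit holds the messenger RNA and the decoding site, and the large subunit joins amino acids and feeds the new protein towards the inner membrane. Some members descend from bacterial ribosomal proteins and others are found only in mitochondria.

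STHdh cells are a conditionally immortalized line of striatal neuronal progenitors from embryonic mouse striatum, here with wild-type huntingtin (Q7). One group received a pcDNA3.1 plasmid carrying the cDNA of the mouse Bcl11b beta isoform, a zinc finger transcription factor enriched in striatal medium spiny neurons. The control received the empty plasmid, although its source label reads wild-type, and all 8 RNA samples were collected 2 days after transfection. The 4 samples of a group are described as different sets of transfected cells from a single line, and because transfection is transient, each sample mixes cells with and without the plasmid. In such bulk RNA, fewer cells with a transcript and less of it per cell cannot be told apart.

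Each array gave a background-subtracted signal for every probe, and between 10121 and 10784 probes were detected per array. The median deposited signal over all probes was 31.6 to 53.9 on the pcDNA3.1 arrays and 20.1 to 30.2 on the Bcl11b arrays, with no overlap between the groups, so levels below are log2 signals after quantile normalization. Bcl11b has a single probe, which no array detected, and the transfection labels could therefore not be checked on these data. Markers of mature medium spiny neurons with a probe (Ppp1r1b, Drd1a, Drd2, Adora2a, Rgs9 and Tac1) went undetected throughout at the threshold used here. The study did find Ppp1r1b and Rgs9 expressed in these cells by PCR, and its array results list Rgs9 as altered. Of the neuronal genes, Map2 was detected on 8 arrays and Syn1 on 7, while Tubb3, Snap25 and Nefl were detected on none. The progenitor genes Nes and Sox2 were detected on all 8. Of the mesenchymal genes, Vim and Col1a1 were detected on 8 arrays, Col3a1 on 7, and Col1a2 and Thy1 on none. Of the glial and microglial genes, Gfap, Aqp4, Mbp, Olig2, Aif1 and Itgam were detected on no array, Slc1a3 on 3 pcDNA3.1 arrays and 1 Bcl11b array, and Cd68 on 2 Bcl11b arrays.

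No mitoribosomal probe passed the test between the groups. In limma's moderated test with Benjamini-Hochberg adjustment over all probes, 0 of 88 members had an adjusted p under 0.10, and the smallest was 0.334. Over all detected probes, 0.299% were higher and 1.27% lower in Bcl11b cells at that threshold. At an unadjusted p under 0.05, 5 member probes were higher and 1 was lower in Bcl11b cells. These were 5.68% and 1.14% of the members, beside 4.82% higher and 13.1% lower among all detected probes. Scaling each array to its median signal instead gave 9 members higher (10.2%) and 0 lower, beside 10.1% and 7.44% of all detected probes. With no normalization between arrays 0 members were higher and 9 lower, beside 0.0748% and 51.3% of all detected probes. No member probe separated the groups, with all 4 Bcl11b arrays above or below all 4 pcDNA3.1 arrays, whereas 2.5% of all detected probes did so upwards and 7.38% downwards.

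The fold changes nevertheless lay mostly on one side. The median log2 fold change (Bcl11b over pcDNA3.1) of the 88 members was 0.27, against -0.03 for all detected probes, a difference of 0.29. Without normalization between arrays both medians were negative (-0.38 and -0.68), and the members still lay above the rest. It was positive in 73 and negative in 15 members, or 83.0% positive, against 46.6% of all detected probes. The middle of the distribution ran from 0.04 at the lower quartile to 0.44 at the upper, with extremes of -0.40 (Mrpl15) and 0.96 (Mrps21). Both subunits showed it, with a median of 0.24 over 38 small subunit probes and 0.29 over 50 large subunit probes. Moving Mrps18a and Mrps30 to the large subunit, where structures place them, left both medians at 0.24 and 0.29. Probes of one complex are not replicates of the transfection, and these medians carry no test.

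**Figure D1:**
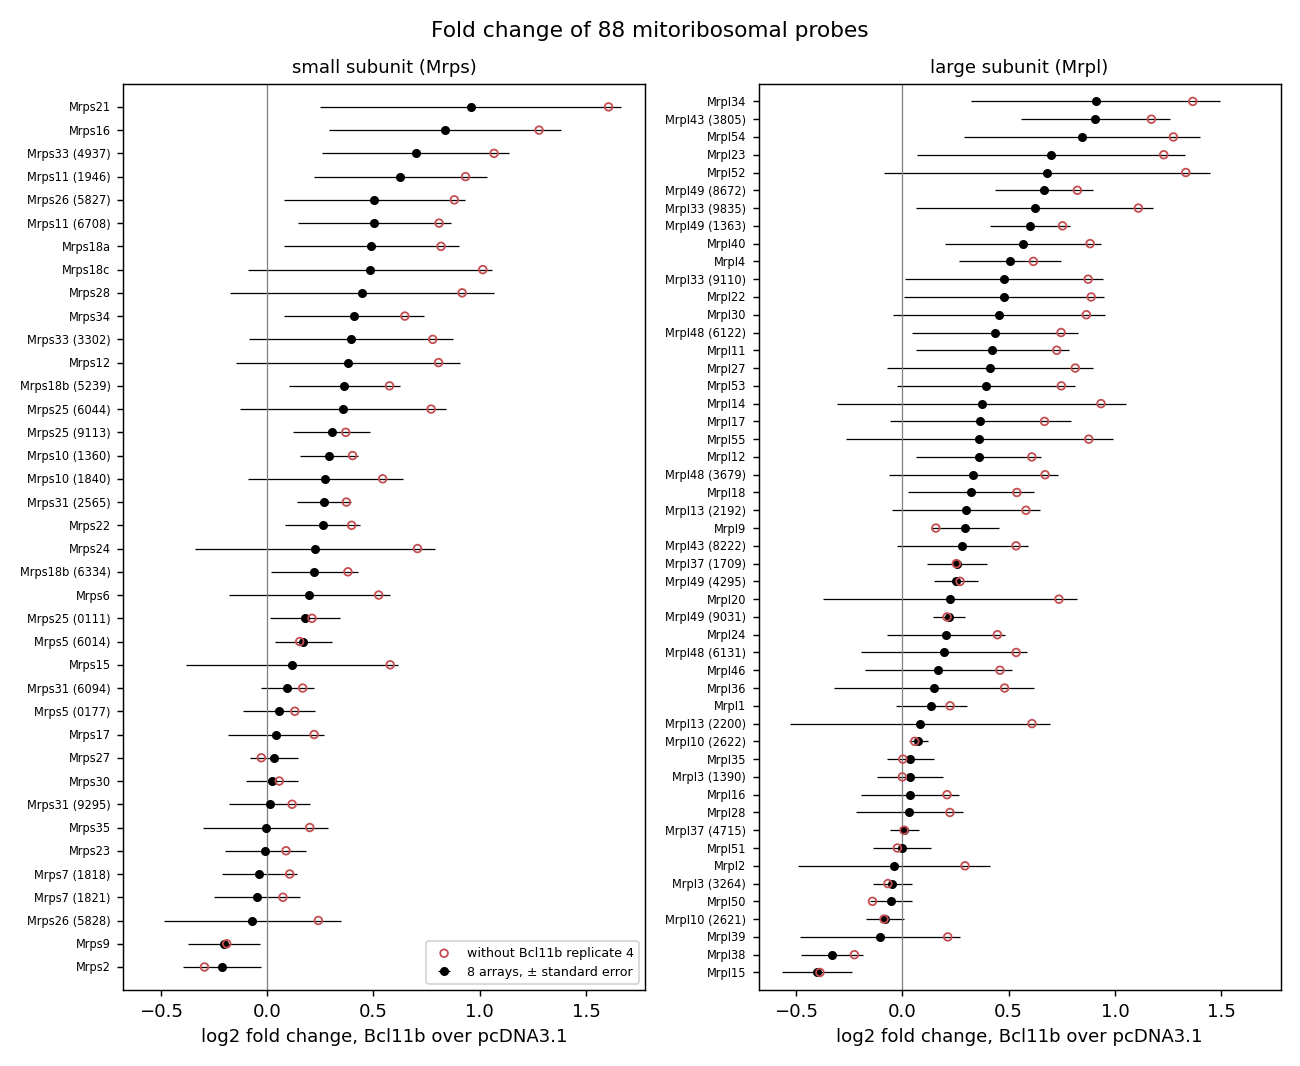
Log2 fold change (x axis, Bcl11b over pcDNA3.1) of each mitoribosomal probe detected on all 8 arrays, with the small subunit on the left and the large subunit on the right; filled points with bars are the estimate from 8 arrays ± its standard error, open circles the estimate without Bcl11b replicate 4, and the last 4 digits of the probe name separate probes of one gene. Of the 88 filled points, 73 lie above 0 after quantile normalization, and most open circles lie to the right of them, with a median of 0.54 against 0.27.

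Between arrays of the same group the members spread more than all detected probes, a trait shared with cytosolic ribosomal proteins and oxidative phosphorylation subunits (below). The median standard deviation within a group was 0.47 for the members and 0.26 for all detected probes, both in log2 units. The distance from the highest to the lowest of the 8 arrays had a median of 1.28 for the members against 0.83 for all detected probes. It exceeded 1 (a 2-fold range) in 52 of 88 members, or 59.1%, against 35.7% of all detected probes, and it exceeded 2 in 15 members, or 17.0%, against 3.72%.

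The same arrays were high or low from member to member. With each probe expressed as its deviation from its own mean over 8 arrays, the members' median deviation was 0.26, -0.33, 0.03 and -0.47 on pcDNA3.1 arrays 1 to 4. It was 0.48, 0.32, 0.39 and -0.60 on Bcl11b arrays 1 to 4. Over all detected probes the same medians stayed between -0.05 and 0.08. Thus pcDNA3.1 replicates 2 and 4 and Bcl11b replicate 4 were low, the other 3 Bcl11b replicates were high, and pcDNA3.1 replicate 1 was closer to the high Bcl11b arrays than to its own replicate 4.

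Counted probe by probe, 76, 9, 50 and 11 of the 88 members lay above their own mean on pcDNA3.1 arrays 1 to 4, and 76, 75, 77 and 14 on Bcl11b arrays 1 to 4. Bcl11b replicate 4 was the lowest Bcl11b array for 71 members (80.7%), against 30.5% of all detected probes, and the lowest of all 8 for 41 members (46.6%), against 16.7%. Both pcDNA3.1 replicates 2 and 4 lay below both replicates 1 and 3 in 65 members (73.9%), against 24.0%. These counts were drawn up after the values had been seen and describe the 8 arrays only. Neither the labels nor the file names a batch that would separate these 3 arrays from the others, and what their cultures shared was not tested.

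**Figure D2:**
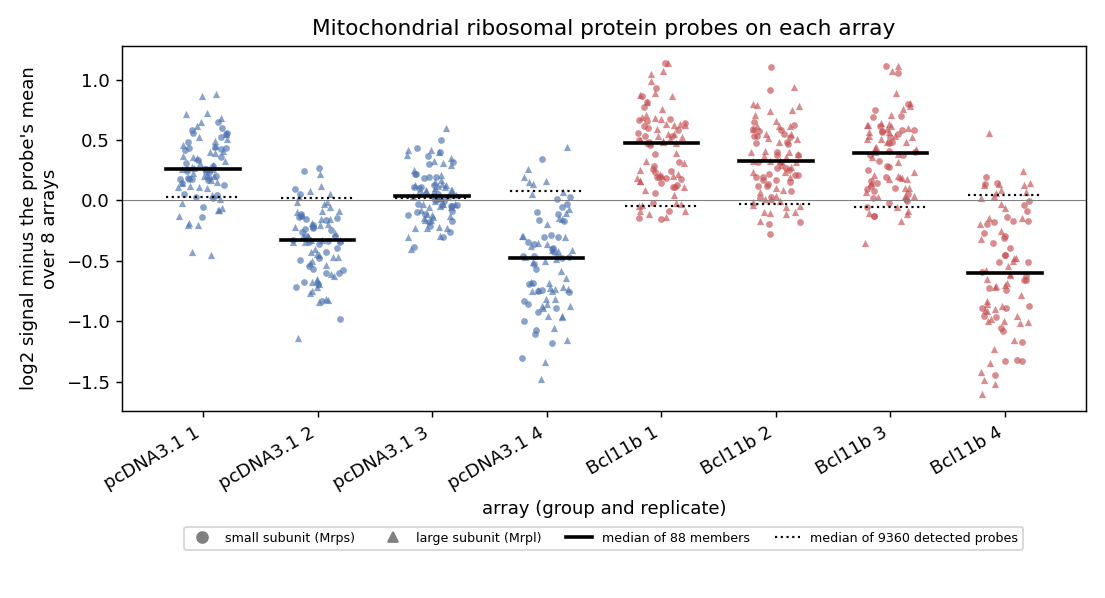
Each point is 1 of the 88 mitoribosomal probes detected on all 8 arrays; the y axis is its log2 signal minus its own mean over 8 arrays and the x axis the array, with circles for the small and triangles for the large subunit. Solid bars are the members' medians, which run from -0.60 on Bcl11b replicate 4 to 0.48 on Bcl11b replicate 1, and dotted bars the medians of all 9360 detected probes, which stay near 0.

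Bcl11b replicate 4 moved these values most. Without it, 26 member probes for 23 genes were higher and 0 lower in Bcl11b cells at an unadjusted p under 0.05. That is 29.5% of the members, beside 8.61% of all detected probes higher and 15.3% lower in the same comparison of 3 with 4 arrays. The median log2 fold change was then 0.54, against -0.06 for all detected probes. Still 0 members had an adjusted p under 0.10 by limma, the smallest being 0.135 (Mrpl49). Leaving out pcDNA3.1 replicate 4 instead lowered the median to 0.14, with 3 members higher (3.41%) and 0 lower, beside 3.19% and 9.11% of all detected probes. Leaving out an array after its values have been seen selects on the outcome, so the counts without Bcl11b replicate 4 are given only to show how far that array moves them.

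The 26 probes came from both subunits, 12 of 38 in the small (31.6%) and 14 of 50 in the large (28%). Among the small subunit genes without Bcl11b replicate 4, the log2 fold change was 1.61 for Mrps21, 1.28 for Mrps16, 1.07 for a Mrps33 probe and 0.40 for Mrps22. Among the large subunit genes it was 1.37 for Mrpl34, 1.28 for Mrpl54, 1.23 for Mrpl23 and 0.61 for Mrpl12. With all 8 arrays, none of these 8 probes had an unadjusted p under 0.05.

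The members' promoters were read because the members varied together. RefSeq promoter windows (mouse build GRCm38.p6, 250 bases before to 50 after the start) were matched by symbol for 63 of the 72 genes, all but Mrpl4, Mrpl13, Mrpl15, Mrpl19, Mrpl38, Mrpl54, Mrps28, Mrps34 and Mrps35. The median GC content was 58% and the median number of CG dinucleotides 21, against 61.3% and 22 for 5565 genes with a detected probe and 52.8% and 7 for all 27025 genes in the table. A divergent neighbour, a gene starting within 1000 bases upstream on the opposite strand, was found for 23 of 63 members (36.5%), against 21.9% of the detected genes and 12.3% of all. Mrpl46 and Mrps11 are such a pair, 42 bases apart. Mrpl49 faces Fau, which encodes a cytosolic ribosomal protein, at 192 bases. Mrpl43 faces Twnk, the mitochondrial DNA helicase, at 116 bases.

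Short motifs were searched on both strands of the whole windows. The ETS core CCGGAAG occurred in 24 of 63 members (38.1%), against 23.4% of detected genes and 9.93% of all. The YY1 core AGATGGC occurred in 11 (17.5%, against 9.24% and 7.31%) and the NRF1 core GCATGCG in 8 (12.7%, against 8.34% and 4.01%). Of the motifs named in the study's own binding site search, ACCACA occurred in 14.3% of members and 14.3% of detected genes, TGCTTG in 15.9% and 14.9%, AGTGCT in 11.1% and 15.1%, GGATCA in 6.35% and 9.06%, AGAGTG in 17.5% and 16.8%, and AGTGTG in 9.52% and 15.9%.

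The members' values were also set against each motif. Members with the ETS core had a median within-group SD of 0.61 and a median log2 fold change of 0.39 (31 probes), and members without it 0.31 and 0.19 (48 probes). The ETS core was not alone in this. The same medians were 0.61 and 0.40 with ACCACA (14 probes) against 0.41 and 0.25 without, 0.67 and 0.38 with AGAGTG (16 probes) against 0.37 and 0.22, 0.60 and 0.30 with AGTGCT (8 probes) against 0.41 and 0.26, 0.62 and 0.32 with AGTGTG (8 probes) against 0.41 and 0.26, and 0.58 and 0.44 with GGATCA (5 probes) against 0.42 and 0.26. With the NRF1 core they were close, at 0.47 and 0.33 (10 probes) against 0.45 and 0.26. With TGCTTG they were 0.37 and 0.23 (12 probes) against 0.50 and 0.27, and with the YY1 core 0.28 and 0.24 (16 probes) against 0.51 and 0.27, so members with either of these motifs varied less. Some windows held several motifs, and probes of one gene share a window, so they are not separate members. Probes with the ETS core came from 23 genes, with ACCACA from 9 and with AGAGTG from 11. Those with AGTGCT came from 6 genes, with AGTGTG from 6 and with GGATCA from 3. Of the 5 GGATCA probes, 3 were of Mrpl48. Probes with the NRF1 core came from 7 genes, with TGCTTG from 10 and with the YY1 core from 10. These searches were chosen after the values had been seen, a match is only a match of letters, and no binding was measured here.

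The 4 stretches below show the range of these promoters, each printed 5′ to 3′ along the gene up to the base before its start, with matches to any of the 9 motifs in capitals. Mrpl34 is given with 250 bases, and the other 3 with the whole gap to the start of their divergent neighbour, which is 191 bases for Mrpl49, 115 for Mrpl43 and 127 for Mrpl37 (neighbour Cyb5rl). Mrpl49 is shown because all 4 of its probes had a low p, Mrpl43 for the highest fold change among low-p probes and a pair of ETS cores, Mrpl34 for its wide swing, a single ETS core and an AGAGTG match (CACTCT on the other strand), and Mrpl37 for its flat probe and a TGCTTG match, read here as CAAGCA on the other strand. They lie at chr19:6057756-6057946 (minus strand), chr19:45006443-45006557 (minus strand), chr8:71464676-71464925 (plus strand) and chr4:107066867-107066993 (minus strand) in GRCm38.p6. In the Mrpl49 stretch none of the 9 motifs occurred, although its searched window, which runs past the printed bases, held a YY1 core. Outside the printed bases, the searched window of Mrpl37 also held a YY1 core, and that of Mrpl43 held AGAGTG and AGTGTG.
Mrpl49: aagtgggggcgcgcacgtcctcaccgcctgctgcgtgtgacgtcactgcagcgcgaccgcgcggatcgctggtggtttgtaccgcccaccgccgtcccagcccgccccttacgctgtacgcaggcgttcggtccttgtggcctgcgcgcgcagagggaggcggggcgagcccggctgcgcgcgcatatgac
Mrpl43: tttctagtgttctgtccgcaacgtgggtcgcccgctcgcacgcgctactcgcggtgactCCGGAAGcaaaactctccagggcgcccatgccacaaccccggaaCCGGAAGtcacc
Mrpl34: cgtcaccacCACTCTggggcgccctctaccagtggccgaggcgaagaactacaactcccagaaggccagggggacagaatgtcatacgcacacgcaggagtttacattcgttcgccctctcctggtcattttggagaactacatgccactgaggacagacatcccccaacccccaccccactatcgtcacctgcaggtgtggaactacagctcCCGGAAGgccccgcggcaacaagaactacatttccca
Mrpl37: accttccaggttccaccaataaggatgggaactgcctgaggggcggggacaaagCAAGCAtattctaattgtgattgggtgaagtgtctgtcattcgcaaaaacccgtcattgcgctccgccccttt

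Mrpl49, a large subunit protein with no bacterial counterpart, was the only gene with more than 1 probe under an unadjusted p of 0.05, and all 4 of its probes were. For probe ILMN_2701363 the log2 signals on pcDNA3.1 arrays 1 to 4 were 6.92, 7.22, 7.27 and 6.90, and on Bcl11b arrays 1 to 4 they were 7.63, 7.995, 7.86 and 7.23. Its log2 fold change was 0.60 ± 0.19 (SE, n = 4 per group; limma, adjusted p = 0.334). Bcl11b replicate 4 fell below pcDNA3.1 replicate 3, and the other 3 Bcl11b arrays lay above every pcDNA3.1 array. For probe ILMN_2628672 the signals were 7.20, 6.62, 7.42 and 6.98 against 8.01, 7.80, 7.83 and 7.24, a log2 fold change of 0.66 ± 0.23 (limma, adjusted p = 0.379).

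The other pair of Mrpl49 probes gave a smaller difference. Probe ILMN_2929031 read 9.32, 8.97, 9.19 and 9.17 in pcDNA3.1 cells and 9.43, 9.31, 9.37 and 9.42 in Bcl11b cells, a log2 fold change of 0.22 ± 0.07 (limma, adjusted p = 0.365). Probe ILMN_2634295 read 11.19, 10.86, 11.26 and 10.88 against 11.38, 11.26, 11.32 and 11.25, a log2 fold change of 0.25 ± 0.10 (limma, adjusted p = 0.475). On all 4 probes, each of the 4 Bcl11b arrays lay above the pcDNA3.1 mean after quantile normalization, whereas without normalization all 4 fold changes were negative. The probes read the same RNA samples and the same gene, so they are not independent evidence, and they disagreed on the size of the difference by more than 0.3.

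Mrpl43 and Mrpl15, which also belong to the large subunit, held the remaining probes under an unadjusted p of 0.05. For Mrpl43, whose protein has no bacterial counterpart, probe ILMN_2633805 read 9.80, 9.84, 9.60 and 8.95 in pcDNA3.1 cells and 10.63, 10.39, 11.12 and 9.68 in Bcl11b cells, a log2 fold change of 0.91 ± 0.35 (limma, adjusted p = 0.444). Its other probe, ILMN_2598222, read 11.86, 11.26, 11.51 and 10.95 against 11.87, 11.90, 12.02 and 10.93, a log2 fold change of 0.28 ± 0.31 (limma, adjusted p = 0.850), so the probes disagreed here too. Mrpl15, a descendant of a bacterial large subunit protein, was lower. It read 8.61, 7.96, 8.27 and 8.60 in pcDNA3.1 cells and 8.07, 8.05, 7.81 and 7.91 in Bcl11b cells, a log2 fold change of -0.40 ± 0.16 (limma, adjusted p = 0.468). Here pcDNA3.1 replicate 2 lay among the Bcl11b arrays.

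Of these 6 calls, 5 were lost under at least 1 omission of an array. Mrpl15 kept an unadjusted p under 0.05 only without pcDNA3.1 replicate 2, and Mrpl43 only without pcDNA3.1 replicate 2 or Bcl11b replicate 4. Mrpl49 ILMN_2701363 kept it under all 8 omissions but lost it without normalization between arrays. Leaving out Bcl11b replicate 1 left that probe as the only one of the 6.

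Divergent neighbours of named members did not pass the test either. Fau, which shares its start region with Mrpl49, had a log2 fold change of 0.71 ± 0.54 (limma, adjusted p = 0.792) and Twnk, listed as Peo1, 0.53 ± 0.43 (limma, adjusted p = 0.802). Sars2, the mitochondrial seryl-tRNA synthetase gene that starts 147 bases from Mrps12, had 0.81 ± 0.38 (limma, adjusted p = 0.547). Not every neighbour was higher. Gga3, next to Mrps7, had -0.05 ± 0.23, and the Tcp1 probes, next to Mrpl18, had 0.04 ± 0.15 and -0.09 ± 0.24. Among neighbours of all members, Klc4, next to Mrpl2, had the smallest p, at -0.59 ± 0.14 (limma, adjusted p = 0.195). Helq, next to Mrps18c, had 0.58 ± 0.22 (limma, adjusted p = 0.431).

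**Figure D3:**
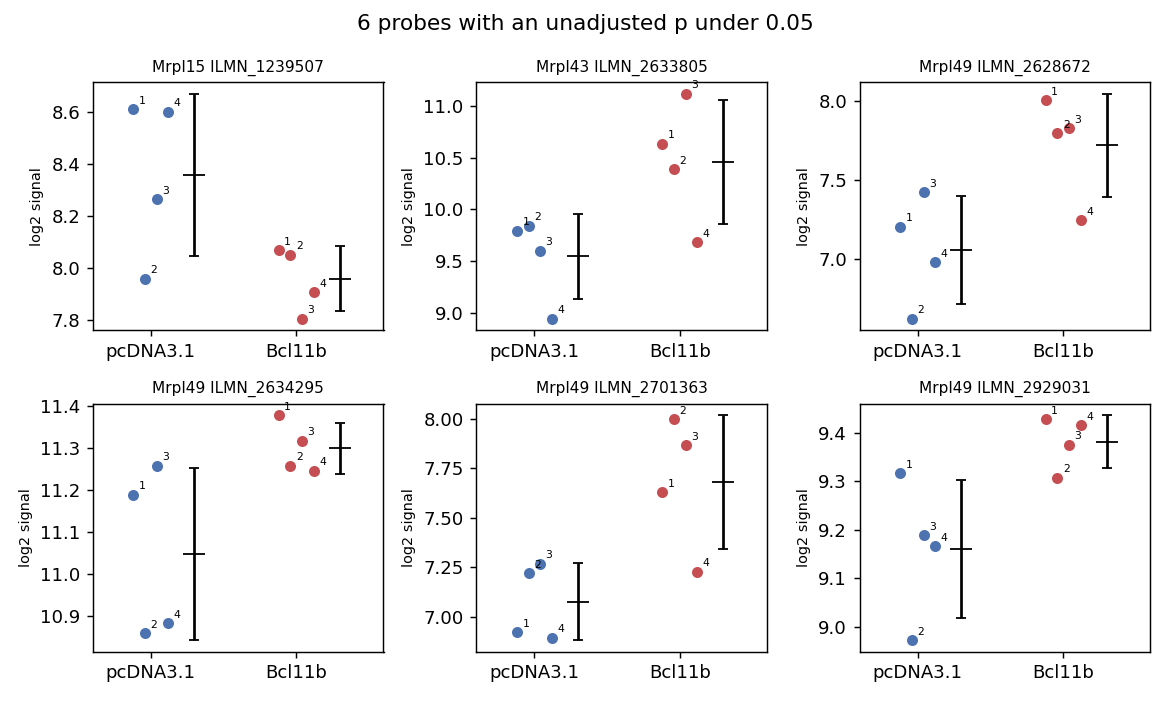
Log2 signals (y axes, one scale per panel) of the 6 mitoribosomal probes with an unadjusted p under 0.05, with 4 pcDNA3.1 arrays in blue and 4 Bcl11b arrays in red, numbered by replicate; the horizontal mark and bar give the group mean ± SD. After quantile normalization, Bcl11b means are higher in 5 panels (Mrpl43 and 4 probes of Mrpl49) and lower for Mrpl15, and in every panel the groups overlap.

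The widest swings between arrays occurred in Mrpl52, Mrps21 and Mrpl34, whose group differences had an unadjusted p of 0.406, 0.223 and 0.169 (limma). A wide swing also occurred at a lower p, in Mrpl43 ILMN_2633805 with a range of 2.17 (limma, unadjusted p = 0.0394). Spread within the groups enters this test, so range and p are not independent. Mrpl52, a mitochondria-specific large subunit protein, had the widest range of all members, 2.74. Its log2 signals were 11.32, 9.31, 10.22 and 9.57 in pcDNA3.1 cells and 11.58, 11.39, 11.34 and 8.84 in Bcl11b cells, a log2 fold change of 0.68 ± 0.77. Mrps21, a small subunit protein of bacterial descent, read 10.05, 8.83, 9.82 and 8.63 against 10.95, 10.92, 10.93 and 8.37, a log2 fold change of 0.96 ± 0.71 (limma, adjusted p = 0.782). In Mrps21, 3 Bcl11b arrays were nearly equal while the remaining one was the lowest of all 8. Mrpl34, a small basic protein of the large subunit whose promoter stretch was printed with an ETS core, read 10.71, 9.77, 10.07 and 8.81 against 11.29, 10.95, 11.37 and 9.39 and had a range of 2.56.

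Other members hardly moved on any array. Mrpl10, which anchors the flexible stalk that recruits translation factors, had the narrowest range, 0.21 for probe ILMN_2822622. One probe of Mrpl37, whose stretch held a CAAGCA match, was ILMN_1254715 and read 12.36, 12.11, 12.29 and 12.06 in pcDNA3.1 cells and 12.19, 12.20, 12.25 and 12.23 in Bcl11b cells, a log2 fold change of 0.01 ± 0.07. In all, 9 member probes had a range under 0.5 (10.2%, against 13.7% of all detected probes), from Mrpl3, Mrpl10, Mrpl35, Mrpl37, Mrpl49, Mrpl50, Mrps27 and Mrps30. These genes were picked for their range after it had been seen.

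Among small subunit proteins chosen for their role, Mrps12, whose bacterial relative lines the decoding site, read 11.61, 10.46, 11.12 and 10.08 in pcDNA3.1 cells and 11.67, 11.50, 11.71 and 9.93 in Bcl11b cells, a log2 fold change of 0.38 ± 0.53. Mrps16 read 9.75, 8.89, 9.46 and 8.19 against 10.42, 10.07, 10.54 and 8.60, a log2 fold change of 0.84 ± 0.55. In both genes pcDNA3.1 replicates 2 and 4 and Bcl11b replicate 4 were the 3 lowest arrays. The log2 fold change was 0.26 ± 0.18 for Mrps22 and 0.41 ± 0.33 for Mrps34, both needed in humans for a stable small subunit. It was -0.21 ± 0.18 for Mrps2, 0.17 ± 0.13 and 0.05 ± 0.17 for the probes of Mrps5, and -0.04 ± 0.18 and -0.05 ± 0.20 for those of Mrps7, all descendants of bacterial proteins. None of these probes had an unadjusted p under 0.05.

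Among large subunit proteins chosen for their role, those around the stalk differed from each other. Mrpl12, which forms the stalk itself, read 12.28, 12.04, 11.99 and 11.49 in pcDNA3.1 cells and 12.67, 12.46, 12.56 and 11.55 in Bcl11b cells, a log2 fold change of 0.36 ± 0.29. Mrpl11, at the stalk base, had a log2 fold change of 0.42 ± 0.36. Mrpl10 had -0.08 ± 0.09 on one probe and 0.07 ± 0.04 on the other. Mrpl3, near the catalytic centre, had 0.04 ± 0.16 and -0.05 ± 0.09 on its probes, and Mrpl28 had 0.03 ± 0.25. Mrpl45, which helps to tether the ribosome to the inner membrane, was detected on 5 arrays only, with a log2 fold change of 0.25 ± 0.23. None had an unadjusted p under 0.05.

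Of the 17 genes with several probes detected on all 8 arrays, 6 had probes that disagreed in direction or by over 0.3 in log2 fold change. Besides Mrpl49, Mrpl43, Mrpl10 and Mrpl3 these were Mrps26 (0.50 and -0.07) and Mrps33 (0.70 and 0.40). No probe of Mrpl19, Mrpl21, Mrpl32, Mrps14 or Mrps36 was detected on any array, and no probe listed under the symbols Mrpl41 or Mrpl44 was found.

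The members were also split by descent, a split made after the values had been seen. For small subunit probes classed as having a bacterial relative, the log2 fold change had a median of 0.23 and the within-group SD 0.53 (19 probes). Those classed as mitochondria-specific had 0.26 and 0.30 (19 probes). For the large subunit the values were 0.30 and 0.52 (30 probes) against 0.27 and 0.48 (20 probes). The median fold changes of the 4 classes thus lay close together, and the spread was smallest in small subunit probes classed as mitochondria-specific. Subunits here follow the symbols, so that class held Mrps18a and Mrps30, which structures place in the large subunit. It also held Mrps18b, whereas Mrps18c was classed with the bacterial relatives. The spread without these genes was not computed.

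The same order of arrays appeared in other nuclear-encoded ribosomal and respiratory proteins. Cytosolic ribosomal proteins (69 detected probes) had median values of 0.25 for the log2 fold change and 0.41 for the within-group SD. Bcl11b replicate 4 was the lowest Bcl11b array in 88.4% of them. Subunits of the oxidative phosphorylation complexes, whose mitochondrially encoded partners the mitoribosome makes, had medians of 0.48 and 0.66 for the same measures (70 detected probes). Bcl11b replicate 4 was the lowest Bcl11b array in 91.4% of these. In both lists 0 probes were higher and 1 lower at an unadjusted p under 0.05 with 8 arrays, beside 4.82% and 13.1% of all detected probes. Without Bcl11b replicate 4, 28 (40.6%) and 41 (58.6%) were higher, beside 8.61% of all detected probes. That omission was made after the values had been seen. The mitoribosomal members thus shared their array order with both lists, and the oxidative phosphorylation subunits had the wider spread.

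**Figure D4:**
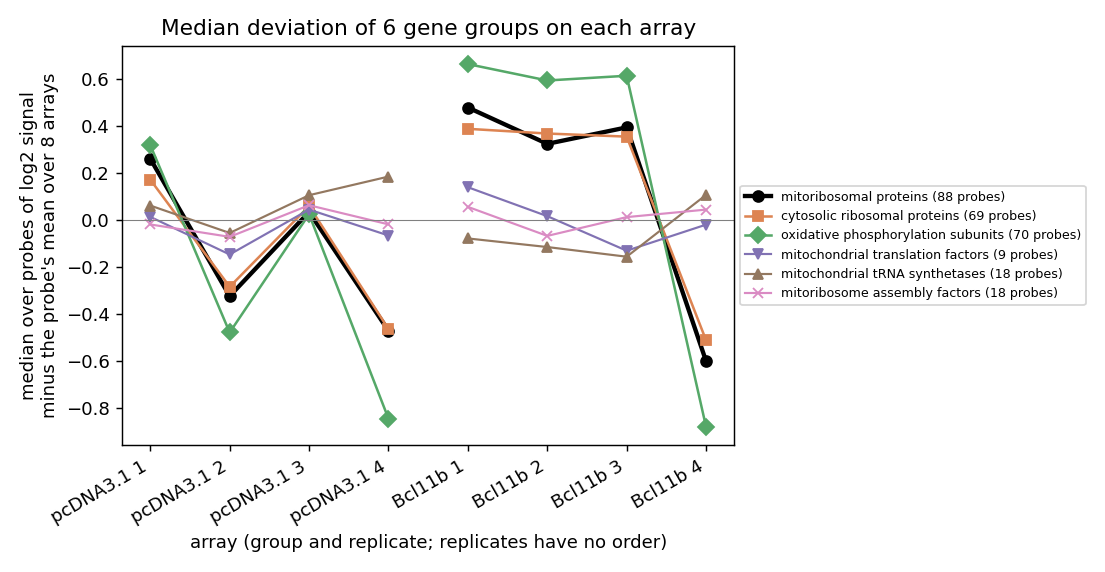
Median over the probes of each gene group of the log2 signal minus the probe's own mean over 8 arrays (y axis), for each array (x axis); lines only join arrays of one group, since replicates have no order. Mitoribosomal proteins, cytosolic ribosomal proteins and oxidative phosphorylation subunits dip together on pcDNA3.1 replicates 2 and 4 and on Bcl11b replicate 4, whereas mitochondrial translation factors, tRNA synthetases and assembly factors stay between -0.16 and 0.18.

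Pooled, the genes that serve the mitoribosome under other symbols had a smaller spread than the members. Over 79 detected probes for 62 genes (ribosomal proteins under other names, translation factors, tRNA synthetases, assembly factors, mitochondrial transcription and RNA genes, and regulators), the median log2 fold change was -0.01 and the median within-group SD 0.21. Bcl11b replicate 4 was the lowest Bcl11b array in 22.8% of them, below the 30.5% of all detected probes. The pooled values hide single genes that did show the members' array order. Among the 9 probes for ribosomal proteins under other names, both pcDNA3.1 replicates 2 and 4 lay below both replicates 1 and 3 in 66.7%, and in Chchd1, Ict1 and Aurkaip1 Bcl11b replicate 4 was the lowest Bcl11b array as well. In all, 14 of the 79 probes (17.7%) showed both, near the 18.7% of all detected probes and below the 70.5% of the members. By limma 6 of the 79 were higher (7.59%) and 9 lower (11.4%) at an unadjusted p under 0.05, beside 4.82% and 13.1% of all detected probes, and 0 had an adjusted p under 0.10. The genes named next are given for their values only. The lists were not matched to the members in level, and no test was made between them.

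Within these lists, 5 of 18 probes for mitochondrial tRNA synthetases and the amidotransferase, which load amino acids onto mitochondrial tRNAs, had a lower level at an unadjusted p under 0.05 (27.8%, beside 13.1% of all detected probes) and 0 a higher one. They included Vars2 (log2 fold change -0.61 ± 0.20), 1 of 3 detected probes of Rars2 (-0.24 ± 0.06, the others at -0.14 ± 0.09 and -0.07 ± 0.10), Gatc (-0.19 ± 0.08) and Qrsl1 (-0.18 ± 0.06). Vars2 read 10.35, 10.0045, 10.85 and 10.69 in pcDNA3.1 cells and 9.95, 9.96, 9.59 and 9.95 in Bcl11b cells. Every Bcl11b array lay below every pcDNA3.1 array, as in 7.38% of all detected probes. Among translation factors 3 of 9 probes were higher (33.3%, beside 4.82%), namely the initiation factor Mtif3 (0.33 ± 0.09), the recycling factor Mrrf (0.27 ± 0.10) and the elongation factor Tsfm (0.25 ± 0.10).

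Of the genes for mitochondrial transcription and RNA, 3 of 17 probes were lower (17.6%, beside 13.1%), namely Fastkd3 (log2 fold change -0.79 ± 0.27), Fastkd1 (-0.44 ± 0.16) and the mitochondrial RNA polymerase Polrmt (-0.40 ± 0.16). The probes of Slirp, an RNA-binding protein of mitochondrial messenger RNAs, had log2 fold changes of 0.79 ± 0.70 and 1.07 ± 0.54, neither at an unadjusted p under 0.05, and both showed the members' array order. Of the assembly factors, the methyltransferase Nsun4 was lower (-0.22 ± 0.08) and Rnmtl1, which methylates the large subunit RNA, was higher (0.39 ± 0.12). Each was 1 of 18 probes (5.56%), beside 13.1% lower and 4.82% higher among all detected probes. Both probes of Gabpb1, a subunit of the ETS-family factor that is known to activate nuclear genes for mitochondrial proteins, were higher (0.53 ± 0.11 and 0.54 ± 0.14). They were 2 of 8 regulator probes (25%, beside 4.82% of all detected probes). In both, every Bcl11b array lay above every pcDNA3.1 array, as in 2.5% of all detected probes. The smallest adjusted p of Gabpb1 was 0.1505 by limma. The detected probes of Gabpa had 0.26 ± 0.17 and 0.13 ± 0.36, neither at an unadjusted p under 0.05. None of the ribosomal proteins under other names (9 probes) had an unadjusted p under 0.05.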

How the data were processed

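RNA from 4 Bcl11b-transfected and 4 pcDNA3.1-transfected STHdh cultures was hybridised to 1-colour Illumina MouseRef-8 v2 BeadChips. Per the file headers and the study's methods, the authors exported from GenomeStudio a background-subtracted signal intensity and a detection p-value for each of 25697 probes. The methods name quantile normalization, but the deposited intensities still differed in distribution between arrays. Here signals were quantile-normalized, values under 1 were set to 1 and log2 was taken. All probes were fitted with limma 3.58.1 (R 4.3.3; lmFit, eBayes, 8 arrays, no covariate), with Benjamini-Hochberg adjustment over all probes. Thresholds were an adjusted p of 0.10 and an unadjusted p of 0.05, as in the study. The study also asked for a 1.25-fold change, which was not applied here. Among the members under an unadjusted p of 0.05, Mrpl49 ILMN_2929031 (1.16-fold) and ILMN_2634295 (1.19-fold) fell short of it. A probe was detected at a detection p under 0.01. Array data limit precision through their number, 4 per group.

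Groups came from sample titles. Members, lists and thresholds were chosen with earlier results of these data known. Probes named were those past an adjusted p of 0.10, the 10 with the smallest p in each direction, those of 15 genes picked for their role, genes whose probes disagreed, and genes with no detected probe. Genes named for a wide or narrow range, the counts by array, the split by descent and the promoter searches were added after values were seen. Old symbols in the other lists were updated through RefSeq. One gene of these lists is not reported here. On simulated data with the real arrays' means, in which 200 of 25697 probes were shifted by 1 log2 unit, 44% of these were recovered at the adjusted and 90.5% at the unadjusted threshold. At the adjusted threshold 14 unshifted probes were called too. The shifted probes were drawn from all detected probes and the noise was independent between probes, so these shares do not measure recovery for the members. Alternatives were other normalizations, neqc, an offset, filters on dim probes, a block for replicate number, array weights, limma-trend, 1 probe per symbol and omission of each array.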

Additional observations from a re-analysis of the deposited data

Results flagged for a closer look

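In groups of 4 arrays, 1 array was tested for lying far from the other 3 by Dixon's ratio of its gap to the group's range. Of 74 groups examined (34 probes and 3 array measures), 10 met this, where chance gives about 1 in 20. In 8 of the 10, Bcl11b replicate 4 was the low array. Its log2 signal was 10.9 for Mrps31 ILMN_2732565 (the other 3 at 11.3 to 11.4), 11.6 for Mrpl38 (12.02 to 12.06), 6.12 for Mrpl1 ILMN_2747281 (7.47 to 7.68) and 4.17 for Mrpl18 ILMN_2823250 (6.73 to 7.25). It was 11.4 for Mrpl28 (12.2 on each of the others), 9.93 for Mrps12 (11.5 to 11.7) and 10.7 for Mrps22 (11.3 on each of the others), and the members' median deviation was -0.60 (0.32 to 0.48). In Mrpl50 the same array was high, at 12.5 against 12.2. In Mrpl10 ILMN_2822621, pcDNA3.1 replicate 2 was low, at 12.2 against 12.5 to 12.6. The Mrpl1 and Mrpl18 probes were not detected on every array. The members share RNA samples, so these flags are not independent of each other.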

How the results depend on the processing

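The direction of the members' median log2 fold change relative to all detected probes, and the absence of a member at an adjusted p under 0.10, held under every alternative run except 1 omission: without pcDNA3.1 replicate 2, 1 member (Mrpl10 ILMN_2822621, lower by a log2 fold change of -0.17) had an adjusted p of 0.0834, so omissions gave 0 to 1. The number of members at an unadjusted p under 0.05, 6 with all arrays, ran from 1 (without Bcl11b replicate 1) to 26 (without Bcl11b replicate 4) over the omissions. It was 19 with the replicate number as a block (all higher; 7.04% of all detected probes were higher and 12.9% lower), 29 with arrayWeights (28 higher; all detected probes 10.5% and 19.1%; Bcl11b replicate 4 had a weight of 0.414 and Bcl11b replicate 1 of 3.05), 3 with limma-trend and 2 with 1 probe per symbol. With the replicate number as a block the smallest adjusted p of a member was 0.236. Neither the labels nor the study's methods say whether same-numbered samples were paired. Deviations of same-numbered samples correlated at 0.677, -0.630, 0.182 and 0.695, and not every sample matched its own number best. With 4 arrays per group these values cannot decide it. For the other mitochondrial translation genes the number, 15 with all arrays, ran from 7 to 26 over the omissions and was 24 with arrayWeights, 9 with median scaling, 9 with limma-trend and 41 with no normalization. Over all detected probes, 4.82% were higher and 13.1% lower with all arrays. The omissions gave 2.97% to 8.61% higher and 8.62% to 16.5% lower. Median scaling gave 10.1% and 7.44%, limma-trend 3.75% and 10.6%, and no normalization 0.0748% and 51.3%. All 41 probes called with no normalization were lower, out of 79.

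Without normalization between arrays, the median over all detected probes was -0.68 and the members' median -0.38 (small subunit -0.40, large subunit -0.37), so members again lay above it, but 9 were lower and 0 higher at an unadjusted p under 0.05. Median scaling gave 9 higher and 0 lower, with the median of all detected probes at 0.07. Log2 fold changes that turned negative without normalization were -0.14, -0.48, -0.0770 and -0.40 for Mrpl49 (ILMN_2701363, ILMN_2929031, ILMN_2628672 and ILMN_2634295), -0.38 for Mrps31, -0.37 for Mrps10, -0.18 for Mrpl4, -0.31 for Mrpl9, -0.41 for Mrpl37 ILMN_2751709, -0.48 for Mrpl10 ILMN_2822622, -0.26 for Mrpl11, -0.17 for Mrpl12, -0.53 for Mrpl28, -0.645 for Mrpl3 ILMN_1231390, -0.50 for Mrpl45, -0.24 for Mrps12, -0.39 for Mrps22, -0.25 for Mrps34, -0.49 and -0.64 for Mrps5, -0.31 for Mrpl43 ILMN_2598222, -0.17 for Mrps26 ILMN_3005827 and -0.17 for Mrps33 ILMN_3163302.

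Small fold changes also changed sign under other settings. With median scaling they were 0.15 for Mrpl10 ILMN_2822621, 0.15 for Mrpl50, 0.11 for Mrpl3 ILMN_2643264, 0.22 and 0.00868 for Mrps7 and 0.0586 for Mrps26 ILMN_3005828. With scaling to detected probes they were 0.0910 for Mrpl10, 0.10 for Mrpl50, 0.0519 for Mrpl3, 0.17 for Mrps7 ILMN_2981818 and 0.00292 for Mrps26. With arrayWeights they were 0.0233 for Mrpl1 ILMN_2747281, 0.0458 for Mrpl18 ILMN_2823250, 0.22 for Mrpl39, -0.0337 for Mrpl3 ILMN_1231390, 0.11 and 0.11 for Mrps7 and 0.28 for Mrps26. Over omissions of 1 array the ranges were -0.29 to 0.21 for Mrpl39, -0.10 to 0.13 for Mrpl3 ILMN_1231390, -0.12 to 0.00172 for Mrpl3 ILMN_2643264, -0.11 to 0.11 and -0.17 to 0.0863 for Mrps7, -0.26 to 0.24 for Mrps26 ILMN_3005828, -0.0794 to 0.22 for Mrpl28, -0.0251 to 0.20 for Mrps5 ILMN_2780177, -0.48 to 0.0368 for Mrpl1 ILMN_2747281 and -0.93 to 0.0949 for Mrpl18 ILMN_2823250. The cause of these changes was not tested. On simulated data 44% of probes shifted by 1 log2 unit were called at the adjusted threshold, and the difference of each of the 88 members detected on all arrays was smaller than that shift. The shifted probes were drawn from all detected probes, whose median within-group SD was 0.26, against 0.47 for the members. The 44% therefore does not measure recovery for the members. Probes near background are the least precise.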
